A study of Homo sapiens with 32 samples.

Results

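The regions described here were the promoters of long noncoding RNA (lncRNA) genes. Each was a window reaching 500 bp to either side of the annotated 5′ end of a GENCODE 44 lncRNA gene on chromosomes 1 to 22 or X. Genes were kept where that 5′ end lay more than 2000 bp from the 5′ end of every protein-coding gene. The rule kept 15427 of 18756 lncRNA genes and left out 3329, among 62062 gene 5′ ends in all. It used annotation alone and no binding value.

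Binding was measured by chromatin immunoprecipitation followed by sequencing, in which DNA crosslinked to a protein is recovered with an antibody and sequenced. The cells were HEK293T, an established human embryonic kidney line, in 1 clone that made ZNF143 fused to an inducible degron (dTAG), so every group carried the tagged protein. The 32 samples formed 10 groups, untreated cells and cells given dTAGV-1, the small molecule that directs the fused protein to degradation, at 50 nM for 30 minutes. ZNF143, recovered through an HA tag, and a mock precipitation had 2 samples in each of the untreated and treated groups, while each group of SP1, YY1 and NRF1 (spelled Nrf1 in the study's design) had 4.

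What was analysed was 1 list of peak summits per antibody, a summit being the point of strongest signal in a peak, with a score for each. No separate value for any sample or treatment was in the lists, so untreated and treated cells were not compared and no spread between replicates exists. Read depth per sample was unknown, and peaks of the mock precipitation were not analysed here. The lists held 16165 ZNF143, 126181 SP1, 39180 NRF1 and 106578 YY1 summits on these chromosomes. Scores were compared only within a list, and shares were read with the unequal list lengths in mind. Intervals in parentheses after a share are Wilson 95% intervals, which cover counting error among windows. Windows are not biological replicates, and each p-value below speaks of positions in these lists only.

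An lncRNA is a transcript that codes for no known protein, and most are made by RNA polymerase II from a promoter with the same core machinery as a protein-coding gene. Many lncRNA genes start away from CpG islands, the stretches rich in the dinucleotide CG at which most broadly active promoters lie, and many are transcribed in few cell types. ZNF143 is a zinc finger activator that binds near starts of both protein-coding and small RNA genes. SP1 binds GC boxes, NRF1 binds a palindromic GC-rich element, and YY1 binds an element containing ATGG that often lies just inside the transcribed region. The 4 factors are all known from CpG-rich promoters.

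The sequences below are shown because they hold a copy or near copy of the ZNF143 element at some of the highest-scoring ZNF143 summits of these promoters, with EPB41L4A-AS1 and LINC02359 added for their exact copies. They do not stand for all: of 44 distinct ZNF143 summits of named promoters searched, 3 held an exact copy within 50 bp, 12 a copy with 1 mismatch and 29 neither. ENSG00000288187, LINC01530, ZSCAN5A-AS1 and GHET1, with scores from 13145.4 to 16285.2, were among the 29. The printed set does not follow score alone. DTX2P1-UPK3BP1-PMS2P11 (5751.66) and LCDR (5495.9) held a near copy and scored above NUCB1-AS1 (4549.72), yet only NUCB1-AS1 is printed. Each run is 30 bases of the hg38 reference, 5′ to 3′ on the strand of the element. Capitals mark the copy or near copy of the ZNF143 consensus, a 10-base motif that begins with CCCA, closest to the highest ZNF143 summit of that promoter.
LINC00663: gactacaactCCCAGCATACcaggcgcggc
ENSG00000287001: gactacatttCCCAGAAACCattgaggctc
NDUFB2-AS1: gactacaggtCCCAGCATGCctcgggacgc
SNHG16: aactacatttCCCACCAGCCctttctcaac
LINC00662: ggactacaatCCCAGCATACaacgggagtg
NUCB1-AS1: aactacaactCCCATCAGCCcctggggcaa
EPB41L4A-AS1: aggcttccgtCCCACAATGCttttctacaa
LINC02359: gactacattgCCCAGCATCCcttgcagtta

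NDUFB2-AS1 (chr7:140696940-140696969, minus strand), EPB41L4A-AS1 (chr5:112160832-112160861, minus strand) and LINC02359 (chr12:126094126-126094155, minus strand) held an exact copy. The other 5 departed from the consensus at 1 base, position 9 counted from its first C in LINC00663 (chr19:19776507-19776536) and LINC00662 (chr19:27793934-27793963), and position 8 in ENSG00000287001 (chr19:50148285-50148314), SNHG16 (chr17:76557680-76557709) and NUCB1-AS1 (chr19:48918887-48918916), all on the plus strand. Every run except that of EPB41L4A-AS1 has ACTACA, left in lower case, ahead of CCCA. The spacer is 3 bases in 6 of them and 2 in LINC00662. Among named promoters whose copy is not printed, ACTACA also stood ahead of it at DTX2P1-UPK3BP1-PMS2P11 and DMXL1-DT. It was absent there at LCDR, DNAAF4-CCPG1, SNHG32, NEAT1 and FGF14-IT1, so the printed runs hold it more regularly than the others. These letters belong to the longer form of the ZNF143 element, and how often they stood at lncRNA promoters is given further on.

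ZNF143 was rare at lncRNA promoters. Of the 15427 windows, 641 held a ZNF143 summit (4.16%, 3.85 to 4.48), while 13.8% of all gene 5′ ends had one. SP1 had a summit in 2187 (14.2%, 13.6 to 14.7) against 28.4% of all 5′ ends, NRF1 in 1116 (7.23%, 6.84 to 7.65) against 21.5%, and YY1 in 1967 (12.8%, 12.2 to 13.3) against 27.6%. At least 1 list had a summit in 2514 (16.3%) against 31.1% of all 5′ ends, and all 4 lists in 453 (2.94%) against 11.9%. The remaining 12913 lncRNA promoters held no summit of any list. The order of the shares followed the order of the list lengths. With each list cut to its highest-scoring 16165 summits, the length of the ZNF143 list, the counts lay closer together, at 641 (ZNF143), 657 (SP1), 788 (NRF1) and 706 (YY1) promoters.

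The shares still stood above the surrounding sequence. Windows of the same length centred 5000 bp to either side, with no annotated 5′ end inside, held a ZNF143 summit in 0.364% (0.301 to 0.440, 105 of 28842). SP1 summits were in 3.97% of these windows, NRF1 summits in 0.964% and YY1 summits in 3.301%. Pseudogene 5′ ends chosen by the same distance rule (14492) had a ZNF143 summit in 0.794%, an SP1 summit in 3.05%, an NRF1 summit in 1.44% and a YY1 summit in 3.17%. Occupied lncRNA promoters were therefore more frequent than occupied pseudogene starts in each list, by intervals that did not overlap.

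**Figure D1:**
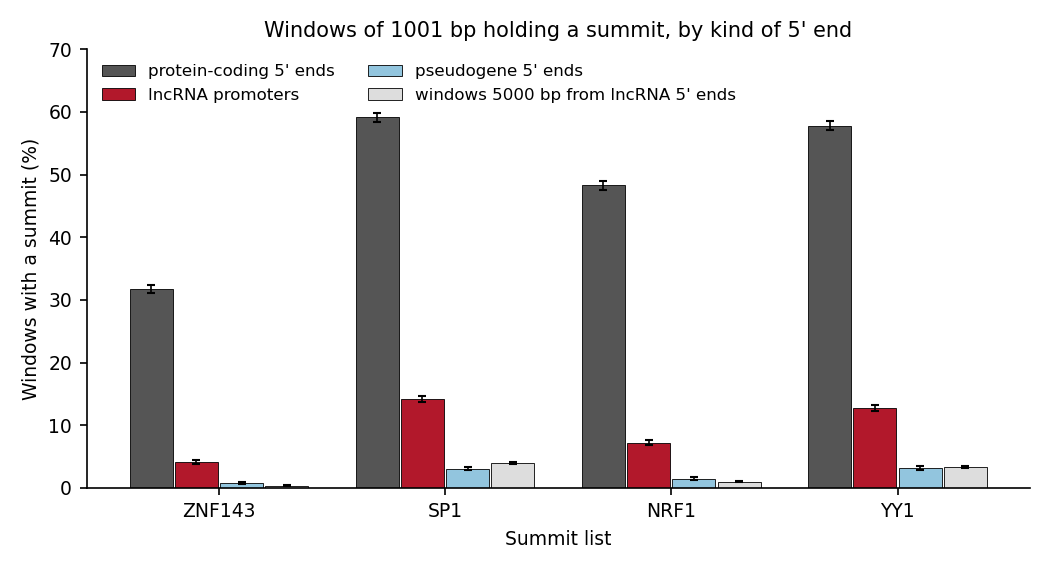
Share of windows with a summit (%, vertical axis) for each list, in protein-coding 5′ ends, lncRNA promoters, pseudogene 5′ ends and windows 5000 bp from lncRNA 5′ ends. Bars are shares and error bars Wilson 95% intervals, with lncRNA promoters between 4.16% for ZNF143 and 14.2% for SP1, above pseudogenes and flanks and far under protein-coding 5′ ends.

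Protein-coding 5′ ends were occupied far more often. Of 19970, 31.7% had ZNF143, 59.1% SP1, 48.3% NRF1 and 57.8% YY1. In a logistic regression over both classes with standard errors clustered by 1 Mb blocks, the odds of a summit at an lncRNA promoter were 0.0936 times those at a protein-coding 5′ end for ZNF143 (95% interval 0.0841 to 0.104). The odds ratio was 0.114 for SP1 (0.106 to 0.123), 0.0835 for NRF1 (0.0765 to 0.0912) and 0.107 for YY1 (0.0988 to 0.115). Against isolated protein-coding genes, those over 2000 bp from every other protein-coding or lncRNA 5′ end, the odds ratios were 0.154 (ZNF143), 0.176 (SP1), 0.130 (NRF1) and 0.165 (YY1). The p-values of the 4 two-sided Wald tests over all protein-coding genes were too small for the computer to hold.

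Base composition differed between the classes and moved with occupancy. CpG content was measured as the number of CG dinucleotides over the number expected from the C and G in the window. Its median was 0.248 at lncRNA promoters and 0.688 at protein-coding 5′ ends, and it reached 0.7 in 7.08% and 48.1% of them. Among lncRNA promoters with a ratio under 0.3, 0.619% held ZNF143. From 0.3 to 0.5 the share was 1.91%, from 0.5 to 0.7 it was 11.7%, and at 0.7 and over it was 32.3% (353 of 1093). At 0.7 and over, SP1 was present in 69.5%, NRF1 in 53.7% and YY1 in 65.7% of lncRNA promoters.

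At like CpG content the lncRNA share lay under the protein-coding share in every bin, though with overlapping intervals for ZNF143 under 0.3. That lowest bin held 9530 of the 15427 lncRNA promoters. There ZNF143 was in 0.619% (0.480 to 0.798) of lncRNA promoters and 0.861% (0.630 to 1.17) of protein-coding 5′ ends. SP1 was in 5.20% against 8.03% there, NRF1 in 0.892% against 1.99% and YY1 in 4.21% against 5.74%. Protein-coding 5′ ends with a ratio of 0.7 and over held ZNF143 in 51.5%, SP1 in 88.4%, NRF1 in 77.4% and YY1 in 88.2%. With linear and squared terms for CpG ratio and GC share in the model, the odds ratio of lncRNA against protein-coding was 0.385 for ZNF143 (95% interval 0.342 to 0.433) and 0.421 for SP1 (0.386 to 0.460). It was 0.338 for NRF1 (0.305 to 0.376) and 0.401 for YY1 (0.366 to 0.439). Each Wald test passed the threshold, and the largest of the 4 Benjamini-Hochberg adjusted p-values was 3.23e-57.

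**Figure D2:**
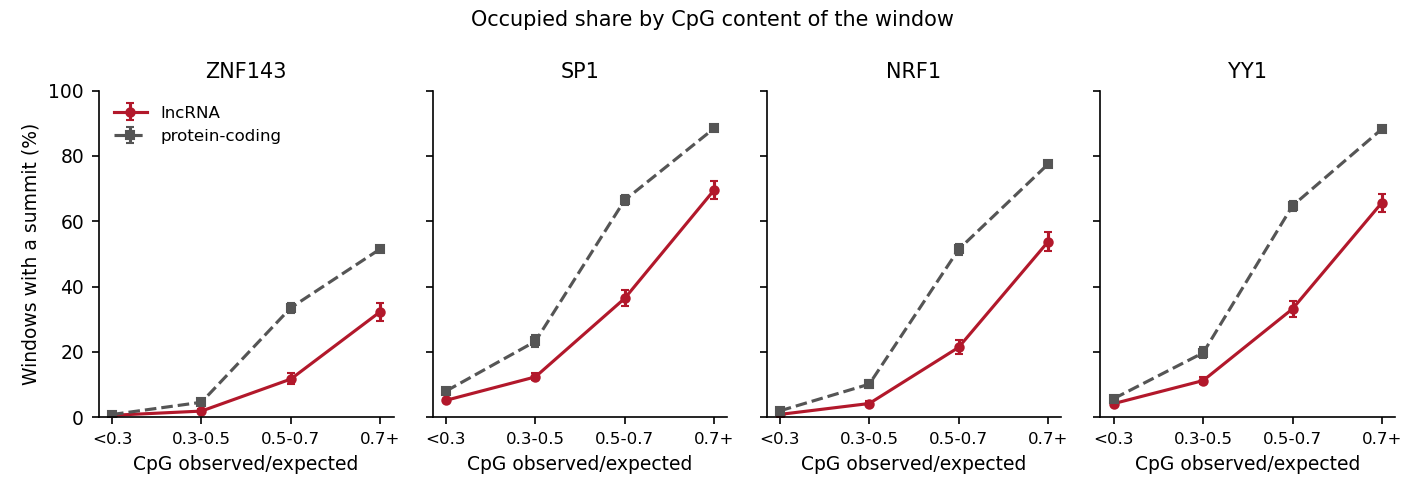
Share of windows with a summit (%, vertical axis) in 4 bins of CpG observed/expected ratio (horizontal axis), lncRNA promoters as circles with solid lines and protein-coding 5′ ends as squares with dashed lines. Error bars are Wilson 95% intervals, and the ZNF143 share rises from 0.619% to 32.3% over the lncRNA bins and reaches 51.5% in the highest protein-coding bin.

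The lists met at the same lncRNA promoters. The most frequent combination was SP1 with YY1 and neither of the others, at 646 promoters (25.7% of the 2514 occupied). SP1, NRF1 and YY1 without ZNF143 followed with 536 (21.3%), all 4 lists with 453 (18.0%), SP1 alone with 374 (14.9%) and YY1 alone with 209 (8.31%). NRF1 stood alone at 34 and ZNF143 alone at 36. At occupied protein-coding 5′ ends the order was another, with all 4 lists in 44.8%, SP1 with YY1 in 11.8% and SP1 alone in 4.08%.

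**Figure D3:**
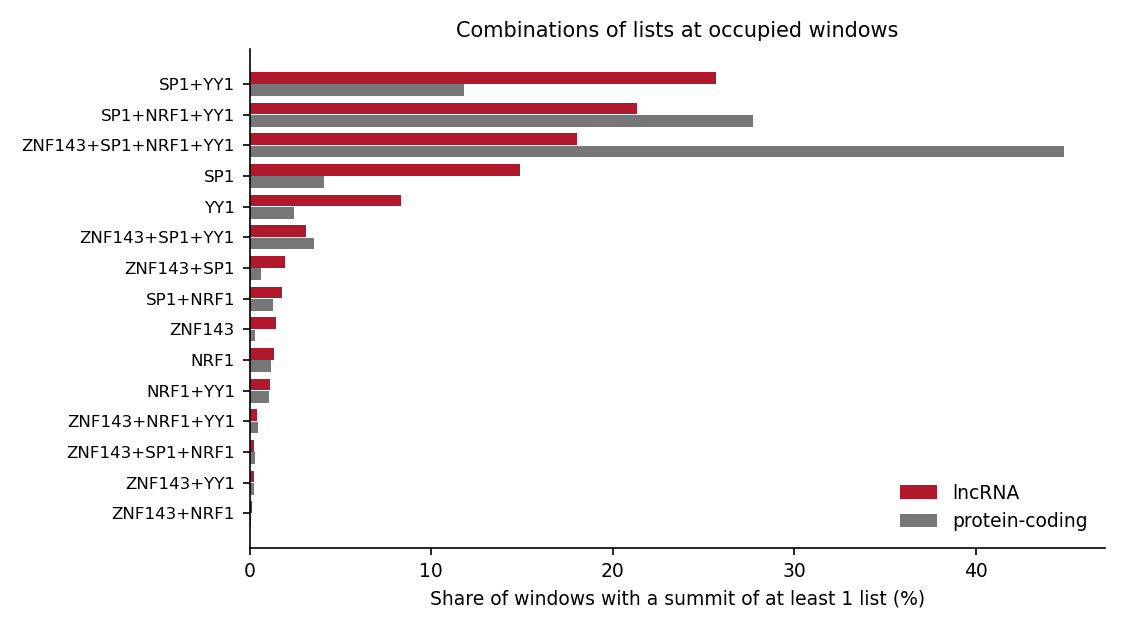
Each bar gives a combination of lists as a share of the windows with a summit of at least 1 list (%, horizontal axis), for 2514 lncRNA promoters and for the occupied protein-coding 5′ ends. All 4 lists together made 18.0% of the lncRNA bars and 44.8% of the protein-coding ones, and SP1 with YY1 made 25.7% and 11.8%.

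Where ZNF143 was present at an lncRNA promoter, the other factors usually were too. SP1 shared the window in 586 of 641 (91.4%), YY1 in 547 (85.3%) and NRF1 in 472 (73.6%). In the other direction, ZNF143 was found in 42.3% of NRF1-occupied, 27.8% of YY1-occupied and 26.8% of SP1-occupied lncRNA promoters. Its share grew with the number of other lists present, from 36 of 12949 (0.278%) with none to 8.59% with 1, 11.5% with 2 and 453 of 989 (45.8%) with all 3. The corresponding shares at protein-coding 5′ ends were 0.468%, 11.2%, 23.6% and 61.8%.

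The odds ratio between ZNF143 and NRF1 was higher at lncRNA promoters than at protein-coding 5′ ends, while the shares ran the other way. NRF1 was present at 73.6% of ZNF143-occupied lncRNA promoters against 90.6% of ZNF143-occupied protein-coding 5′ ends, and ZNF143 at 42.3% against 59.4% of those with NRF1. The odds of a ZNF143 summit were 61.3 times higher with NRF1 than without it at lncRNA promoters (95% interval 48.7 to 77.3), against 24.0 times at protein-coding 5′ ends (21.4 to 26.8). The ratio of these odds ratios was 2.56 (1.99 to 3.29, Wald test of the interaction, n = 35397 windows, adjusted p = 9.05e-13 over 3 factors). With CpG and GC terms in the model, an alternative chosen after seeing the data, it fell to 1.49 (1.14 to 1.93, adjusted p = 0.00941, n = 35397). For SP1 the odds ratios were 87.7 and 63.5, with a ratio of 1.38 (0.976 to 1.956, adjusted p = 0.102, n = 35397). For YY1 they were 54.8 and 58.3, with a ratio of 0.939 (0.661 to 1.33, adjusted p = 0.724, n = 35397). The SP1 and YY1 ratios did not pass the test, and both changed direction under some of the alternatives listed at the end. At equal list length all 3 ratios passed it, at 4.53 for SP1, 4.18 for NRF1 and 3.18 for YY1.

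Within the shared windows the summits lay close together. The 641 promoters had 568 distinct highest ZNF143 summits, since neighbouring genes can share one. An SP1 summit lay within 100 bp of 348 (61.3%, 57.2 to 65.2), a YY1 summit of 305 (53.7%) and an NRF1 summit of 200 (35.2%). Among those with a partner within 500 bp, the median distance was 63 bp to SP1, 66 bp to YY1 and 106 bp to NRF1. For the 5384 highest summits at protein-coding 5′ ends, the shares within 100 bp were 66.5%, 65.5% and 46.4%.

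Summits gathered at the annotated 5′ ends. In 50 bp bins, ZNF143 summits were densest from 100 to 50 bp upstream of lncRNA 5′ ends, with 4.86 summits per 1000 5′ ends, against a mean of 0.308 per bin from 1500 to 2000 bp away. SP1 was densest from 50 bp upstream to the 5′ end (20.9 per 1000, against 3.84 far away) and NRF1 from 100 to 50 bp upstream (8.43 against 1.157). YY1 alone was densest downstream, from 50 to 100 bp into the transcribed side (13.9 against 3.55). At protein-coding 5′ ends the densest bins were also upstream for ZNF143, SP1 and NRF1 and downstream, from 100 to 150 bp, for YY1.

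The peak over the far level was lower at lncRNA 5′ ends in every list. For ZNF143 it was 15.8 times against 38.4 times at protein-coding 5′ ends, for SP1 5.45 against 9.80, for NRF1 7.28 against 16.5 and for YY1 3.92 against 7.45. The highest ZNF143 summit was at most 100 bp from the annotated start in 39.9% of the 641 lncRNA promoters that held one and in 47.3% of the protein-coding windows that did. The median offset of the highest summit was 18 bp upstream for ZNF143, 38 bp upstream for SP1, 30 bp upstream for NRF1 and 3 bp downstream for YY1, with ZNF143 quartiles of 138 bp upstream and 122 bp downstream. No test was made of these positions, and the accuracy of the annotated 5′ ends of each class was not tested.

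**Figure D4:**
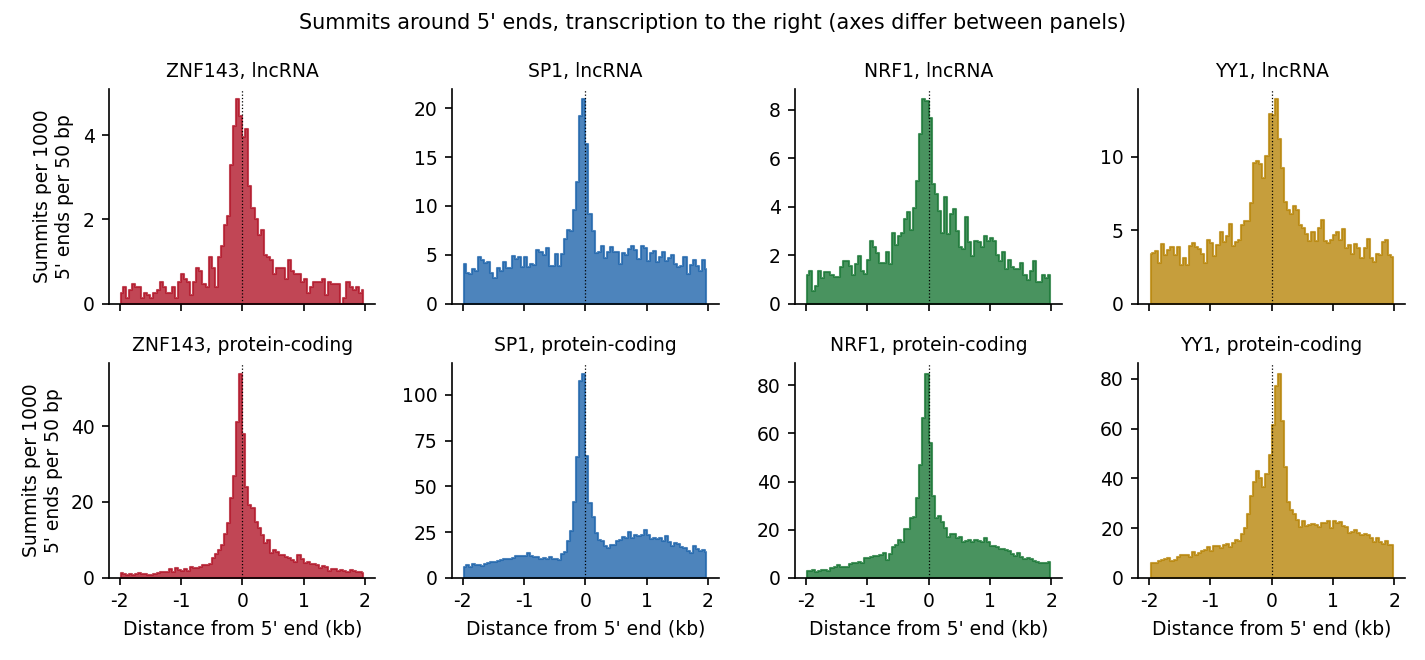
Summits per 1000 5′ ends in 50 bp bins (vertical axis, its range differing between panels) by distance from the 5′ end (kb, transcription to the right), lncRNA promoters above and protein-coding 5′ ends below. ZNF143, SP1 and NRF1 peak upstream of the dotted line at 0 and YY1 downstream in both classes, with lncRNA peaks of 4.86, 20.9, 8.43 and 13.9.

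The scores spanned a wide range. The highest ZNF143 summits at lncRNA promoters had a median score of 17.7, quartiles of 6.95 and 119.6, and a median percentile of 56.8 in their list, against a median of 23.6 and an upper quartile of 706.5 at protein-coding 5′ ends. SP1 had a median score of 59.6 (percentile 75.9), NRF1 of 21.1 (percentile 75.04) and YY1 of 51.3 (percentile 77.0). In the top 10% of its list lay the ZNF143 summit of 78 of the 641 lncRNA promoters (12.2%) and of 20.4% of the protein-coding windows with ZNF143. For the other lists these shares were 23.8% and 45.1% (SP1), 20.2% and 31.2% (NRF1), and 25.3% and 49.3% (YY1).

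The highest ZNF143 score belonged to a divergent pair of lncRNA genes. LINC00663 (minus strand, 5′ end at chromosome 19, 19776423) and ENSG00000291177 (plus strand, 19776561) shared 1 summit at 19776525 with a score of 16510.5, and all 4 lists had a summit there. ENSG00000287001 (chromosome 19, 50148302) followed among uniquely placed summits with 15051.1, with its summit 13 bp upstream of the 5′ end. LINC01530 (chromosome 19, 51594396) had 14733.8 and ZSCAN5A-AS1 (chromosome 19, 56314703), antisense to a zinc finger gene, 14241.2, with a coding transcript start 85 bp from its 5′ end. These 5 genes, of which the pair shares 1 summit, held summits of all 4 lists and lay on chromosome 19. Of all 641 lncRNA promoters with ZNF143, 453 held all 4 lists and 37 lay on chromosome 19. The second-ranked ENSG00000288187, described next, is not among the 5.

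ENSG00000288187 on chromosome 21 had 16285.2, the second highest score after that pair. The 31 bases at its summit occur at 5 places on chromosomes 1 to 22, X and Y in the reference, and whether its reads came from this promoter was not tested. It held SP1 but neither NRF1 nor YY1. The running numbers of NRF1 or YY1 peaks skip in 44 regions, which held 262 lncRNA promoters, 21 of them with ZNF143. Whether ENSG00000288187 lies in such a region was not examined, so its lack of NRF1 and YY1 summits may not describe the promoter. GHET1 had 13145.4 from a summit 160 bp upstream, and the 5′ end of RNY1, a Y RNA gene transcribed by RNA polymerase III, lies 279 bp from that of GHET1. Which gene the summit belongs to was not tested.

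Several of the highest-scoring antisense and divergent lncRNA promoters coincided with an alternative start of a coding gene. The distance rule used the 5′ ends of genes, and other annotated transcripts of the coding gene can start elsewhere. NDUFB2-AS1, antisense to a subunit gene of respiratory complex I, had a ZNF143 score of 7886.45 with a coding transcript start 80 bp away. ZNF584-DT had 6431.92 (165 bp away), ZNF529-AS1 6014.39 (218 bp), DMXL1-DT 1930.12 (185 bp) and CHFR-DT 315.255 (234 bp). CHFR-DT, divergent from a mitotic checkpoint gene, also had a YY1 score of 7652.7, in the top 0.129% of that list.

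In all, 493 lncRNA promoters had a coding transcript 5′ end within 500 bp. They held ZNF143 in 132 (26.8%), SP1 in 57.8%, NRF1 in 45.0% and YY1 in 56.8%. Without such a start, 509 of 14934 lncRNA promoters (3.41%) held ZNF143, 12.7% SP1, 5.99% NRF1 and 11.3% YY1. Just outside the distance rule, 271 lncRNA genes 1500 to 2000 bp from a coding 5′ end had ZNF143 in 11.4% and SP1 in 40.2%, and just inside it, 193 genes at 2000 to 2500 bp had 7.77% and 26.4%. At over 100 kb (5639 genes) the ZNF143 share was 2.36% and the SP1 share 9.77%. At the window's edge, 34 members had their nearest ZNF143 summit 400 to 500 bp away and 26 had it 500 to 600 bp away.

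Occupancy differed widely among kinds of lncRNA gene, set by name or annotation. Genes named SNHG, for small nucleolar RNA (snoRNA) host gene, held ZNF143 in 12 of 18 (66.7%, 43.7 to 83.7), and SP1, NRF1 and YY1 each had a summit in 16 of the 18. snoRNAs lie in introns of their host genes and guide chemical modification of ribosomal RNA. Over all 61 lncRNA genes annotated as hosting a snoRNA, whatever their name, the shares were lower, with ZNF143 in 15 (24.6%, 15.5 to 36.7), SP1 in 42.6%, NRF1 in 36.1% and YY1 in 37.7%. Divergent transcripts named -DT held ZNF143 in 10 of 37 (27.0%), microRNA host genes in 10 of 77 (13.0%) and antisense genes named -AS in 90 of 1204 (7.48%). Intergenic genes named LINC held it in 74 of 2172 (3.41%) and genes with an Ensembl identifier only in 352 of 11154 (3.16%). Intronic or overlapping genes named -IT or -OT had 2 of 132 (1.52%). These kinds also differed in CpG content, with a median ratio of 0.744 for SNHG and 0.782 for -DT genes against 0.243 for both LINC genes and those with only an identifier.

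Other annotation properties showed the same spread. lncRNA promoters with a divergent lncRNA partner within 1000 bp held ZNF143 in 86 of 442 (19.5%), against 3.70% of the others. Promoters with 5 or more annotated transcripts held it in 10.3% and those with 1 transcript in 2.88%. A 5′ end inside a coding gene body on the same strand had ZNF143 in 1.64%, on the opposite strand in 4.30%, and outside any coding gene in 4.47%. Promoters with a small RNA gene start within 500 bp held ZNF143 in 21 of 65 (32.3%). Genes tagged in GENCODE as overlapping a pseudogene held it in 98 of 738 (13.3%), against 3.70% without that tag. None of these differences between kinds was tested.

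Some of these summits lay in repeated sequence. The 31 bases centred on the highest ZNF143 summit occurred more than once on chromosomes 1 to 22, X and Y for 87 of the 568 summits at lncRNA promoters (15.3%, 12.6 to 18.5). At protein-coding 5′ ends this held for 105 of 5384 (1.95%, 1.61 to 2.36). Among the 98 ZNF143-occupied promoters with the pseudogene tag 28 were affected (28.6%), and among the 543 others 72 (13.3%). DTX2P1-UPK3BP1-PMS2P11 (score 5751.66, 2 places) and MIR1302-2HG (19.791, 2 places) were among them. Without the tagged genes, an alternative chosen after seeing the data, the odds ratio of lncRNA against protein-coding for ZNF143 was 0.0828 (0.0744 to 0.0923). The 72 affected promoters without the tag stayed in that fit, so it does not show the effect of repeated sequence.

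ZNF143 stood alone at 36 lncRNA promoters, which were unlike the rest of the 641 in sequence. Their median CpG ratio was 0.238, near the 0.227 of promoters with no summit at all and far from the 0.752 of those with all 4 lists. Their median ZNF143 score was 40.4, above the 17.7 of all occupied lncRNA promoters. NUCB1-AS1 (chromosome 19, 48918891) had the highest of them, 4549.72, from a summit 28 bp upstream of its 5′ end. LINC02359 (chromosome 12, 126094112) had 731.053 from a summit 24 bp downstream, at the exact consensus copy printed above. LINC01609 had 2369.72 at 275 bp upstream and a CpG ratio of 0.0480. ZNF143 also stood alone at 35 protein-coding 5′ ends (0.175% of them, against 0.233% of lncRNA promoters). The 34 distinct highest summits there had a median score of 29.9, against 23.6 for all protein-coding 5′ ends with ZNF143. Regions with skipped NRF1 or YY1 peak numbers held 21 of the 641 lncRNA promoters. How many of the 36 lay in those regions was not examined.

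The consensus sequences were searched on both strands within 50 bp of each highest summit and, as a background, in equal windows centred 400 bp upstream and downstream of it. The ZNF143 consensus was present at 38 of 568 ZNF143 summits (6.69%, 4.91 to 9.05) and in 0.704% of the flanking windows. At protein-coding 5′ ends it was present at 4.83% of summits, an interval (4.29 to 5.43) that overlaps the one for lncRNA promoters. The SP1 consensus, KGGGCGGRR with K for G or T and R for A or G, was at 10.7% of SP1 summits (2.95% in flanks), against 21.2% at protein-coding 5′ ends. The NRF1 consensus was at 3.53% of NRF1 summits (0.0491% in flanks) and the YY1 consensus AANATGGCG at 2.98% of YY1 summits (0.1896% in flanks). The CTCF consensus was also at 2.98% of YY1 summits in lncRNA promoters (0.0813% in flanks) and at 0.407% of those at protein-coding 5′ ends.

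Scores were higher where the consensus was present. ZNF143 summits with it had a median score of 187.5, against 16.3 without it. For SP1 the medians were 165.2 and 46.9, for NRF1 5419 and 16.9, and for YY1 690.6 and 45.2. With 1 mismatch allowed, the ZNF143 consensus was at 25.9% of summits and in 11.5% of flanking windows.

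The ACTACA element seen in the printed runs was searched after they had been read, as ACTACANNNCCCA or ACTACANNCCCA on both strands. It was present at 44 of the 568 ZNF143 summits in lncRNA promoters (7.75%, 5.82 to 10.2) and in 0.0880% of the flanking windows. At protein-coding 5′ ends the shares were 7.62% and 0.0557%. Of the 44, 8 also held the ZNF143 consensus, which begins with the CCCA that ends this element. Of the 44 summits, 30 (68.2%) were in the top 10% of the ZNF143 list. The median score of the 44 was 3470, against 39 of 524 (7.44%) in the top 10% and a median of 15.7 without the element. The 44 include the printed summits that led to the search, several of them printed for their high scores. The score contrast is therefore not independent of that choice. At SP1, NRF1 and YY1 summits of lncRNA promoters the element was present in 0.780%, 0.393% and 0.650%.

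Most copies in lncRNA promoters were not occupied. The element occurred in 125 of 15427 lncRNA windows (0.810%) and in 3.35% of protein-coding windows. A ZNF143 summit lay within 50 bp of 48 of its 130 copies in lncRNA windows (36.9%, 29.1 to 45.5), against 460 of 650 (70.8%, 67.2 to 74.1) in protein-coding windows. The ZNF143 consensus occurred in 5.87% of lncRNA and 6.66% of protein-coding windows. Of its 926 copies in lncRNA windows, 48 had a ZNF143 summit (5.18%), against 285 of 1297 (21.97%) in protein-coding windows.

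Occupation of the consensus copies went with the other lists. With no SP1, NRF1 or YY1 summit within 250 bp, 15 of 804 copies in lncRNA windows were occupied (1.87%), and 11 of 673 (1.63%) in protein-coding windows. With 1 or 2 other lists the shares were 23.7% and 26.5%. With all 3 they were 10 of 25 (40.0%, 23.4 to 59.3) and 184 of 284 (64.8%, 59.1 to 70.1). Copies without another list made up 804 of 926 in lncRNA windows and 673 of 1297 in protein-coding windows.

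Well-known lncRNA genes were taken from 6 lists of 60 names, of which 44 met the distance rule. ZNF143 had a summit at 13, SP1 at 26, NRF1 at 18 and YY1 at 25, while 18 had none and 12 had all 4. The lists held genes known for their transcripts, so these counts do not stand for lncRNA genes in general.

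Of the 11 well-known snoRNA host genes on these lists, 7 held ZNF143, a higher share than the 15 of 61 over all annotated snoRNA hosts. SNHG16 (chromosome 17, 76557727) had a ZNF143 score of 7059.71 at 25 bp upstream, in the top 3.84% of the list, with SP1 at 318.1, NRF1 at 205.7 and YY1 at 768.7. SNHG29 had 4414.01, with an NRF1 score of 9607 in the top 1.15% of that list. EPB41L4A-AS1, which hosts SNORA13, had 1419.85 at 309 bp downstream, and SNHG32 had 160.5. SNHG15, SNHG7 and SNHG8 had ZNF143 scores of 16.3 (top 44.9% of the list), 9.83 (top 58.4%) and 2.69 (top 94.2%), and at SNHG8 the NRF1 score was 3684, in the top 4.38% of that list. SNHG6 and DANCR held SP1, NRF1 and YY1 without ZNF143, SNHG12 held SP1 (3.83) and YY1 (6.00) at low scores, and SNHG14, an imprinted host of snoRNA clusters, held nothing.

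Among nuclear and architectural lncRNAs, ZNF143 was at 5 of 8, with scores from 6.196 to 19.36, around or under the median of 17.7 of occupied lncRNA promoters. MALAT1, a highly abundant transcript of nuclear speckles, had a ZNF143 score of 16.9, with SP1 at 1757.56 (top 0.809%), NRF1 at 2978 and YY1 at 1078. NEAT1, the scaffold of paraspeckles, had ZNF143 at 18.1, SP1 at 2732 and YY1 at 273.3, and no NRF1 summit. FIRRE, an X-linked lncRNA of nuclear organization, had 16.3 with YY1 at 1584, and JPX had 19.4 with YY1 at 4888, in the top 0.270% of the YY1 list. NORAD, which binds Pumilio proteins, had 6.196 with YY1 at 1255. FTX held SP1, NRF1 (3513) and YY1 without ZNF143, and CYTOR and MIAT held no summit.

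The other lists were occupied less often than the snoRNA host and nuclear ones. No summit was found at 4 of 6 imprinted, 3 of 6 cancer and HOX and 7 of 12 microRNA host genes. Over all lncRNA promoters 83.7% held none. Of 6 imprinted lncRNA genes none held ZNF143 or NRF1, which over all lncRNA promoters were present in 4.16% and 7.23%: KCNQ1OT1 had SP1 (668.3) and YY1 (45.98), GNAS-AS1 had SP1 (111.2) and YY1 (80.0), and H19, MEG3, MEG8 and AIRN had none. Of 12 microRNA host genes, MIR17HG, host of an oncogenic microRNA cluster, had all 4, with ZNF143 at 136.3, SP1 at 613.8, NRF1 at 270.8 and YY1 at 366.1. MIRLET7BHG held SP1 (65.5), YY1 (51.9) and NRF1, the last at a low score of 2.32 (top 90.4% of its list). No summit was held by 7 of the 12, among them MIR155HG with a CpG ratio of 0.789. On the cancer and HOX list, HOTAIR, HOTTIP and HOTAIRM1 were not among the 6 genes that met the rule. Of those 6, CASC15, PVT1 and PCA3 held SP1 and YY1, CASC15 also NRF1, and none ZNF143. PCA3 has a coding transcript start 213 bp from its 5′ end. PURPL, the only p53-linked name that met the rule, held no summit.

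**Figure D5:**
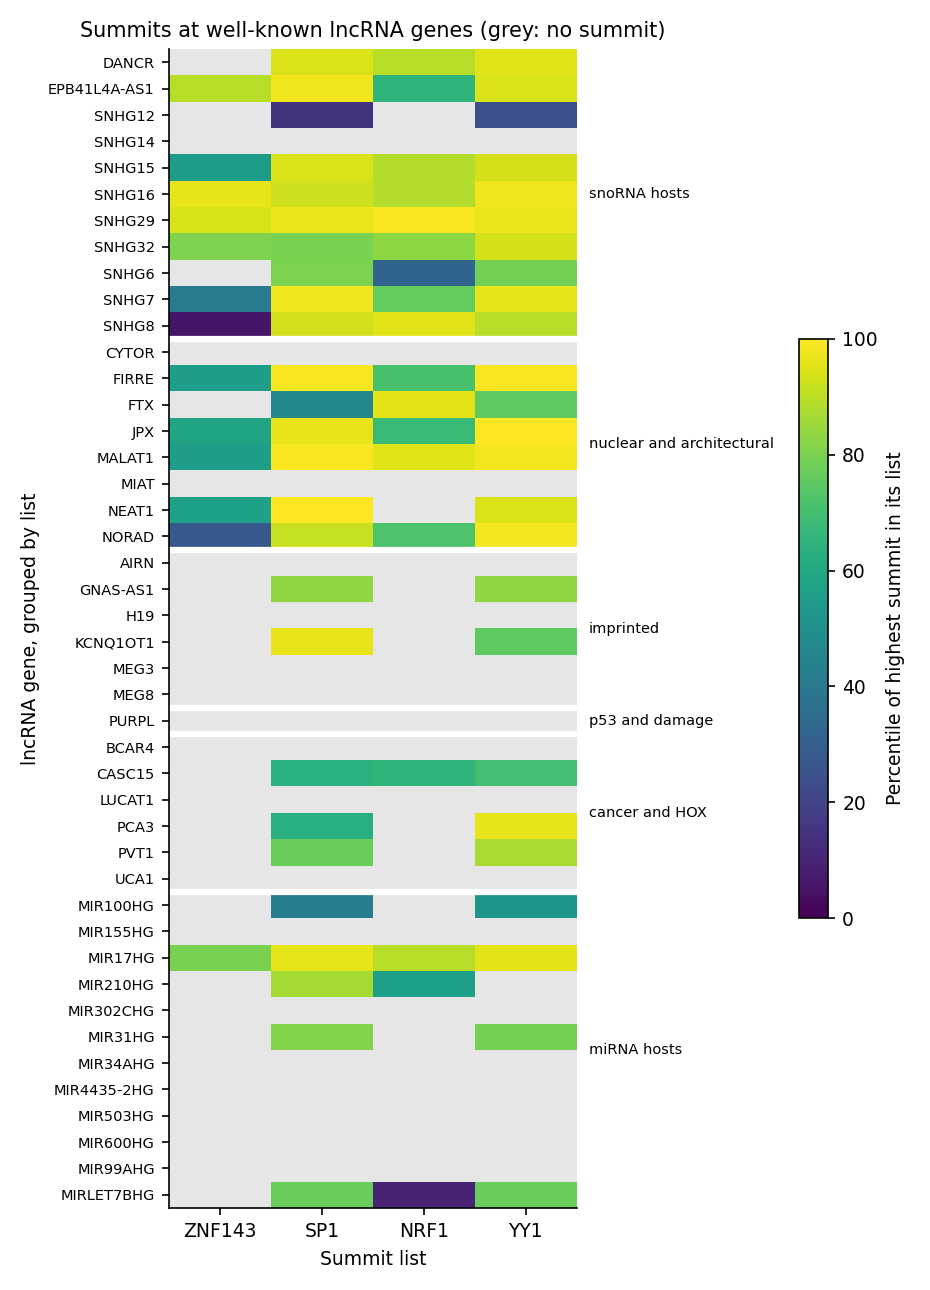
Percentile of the highest summit within its own list (colour, from 0 at the list's lowest score to 100 at its highest) at 44 well-known lncRNA genes in rows, for the 4 lists in columns, with grey where no summit lay within 500 bp. Summits of all 4 lists are frequent in the snoRNA host and nuclear groups, and the 6 imprinted genes are grey for ZNF143 and NRF1, which were present in 4.16% and 7.23% of all lncRNA promoters.

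The highest scores of the other lists lay elsewhere. ENSG00000288748 (chromosome 17, 2265 bp from the 5′ end of the histone demethylase gene KDM6B) had the highest SP1 score of any lncRNA promoter, 5493.5, near the edge of its window at 496 bp downstream. ENSG00000289854 (4476.2) and ENSG00000290928 (4425.29) came next. NRF1 was highest at ENSG00000232876 (19282.5, in the top 0.0893% of the list), which has a coding transcript start 149 bp away. MRPL45P2 (15810) and ENSG00000286874 (15709) followed. YY1 was highest at ENSG00000291326 (15820.9, in the top 0.0263%), 150 bp from a coding transcript start, then at ENSG00000288983 (9825) and GUSBP11 (8535). All 9 promoters also held ZNF143, with scores from 8.36 (top 63.2% of the list) to 1580.75 (top 10.3%). All 9 held SP1, NRF1 and YY1 together, and ZNF143 was at 45.8% of all lncRNA promoters with those 3.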

How the data were processed

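The authors deposited 1 list of peak summits per antibody. Per the submitters' processing notes, cutadapt, Bowtie2, SAMtools 1.16.1, MACS3 and bedtools were used with hg38, with no settings given. The score the authors deposited is, judging by its values, on a −log10 scale, as MACS writes a p-value or a q-value, and the choice between them is not given in the sources used here. The labels tie the SP1 and ZNF143 lists to treated as well as untreated samples, and for NRF1 and YY1 this is not given.

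Contig names and positions were checked against hg38. Gene 5′ ends came from GENCODE 44. A window was occupied if a summit lay within 500 bp. Where several did, the highest by score was used. Logistic regressions used statsmodels 0.14.6 with standard errors clustered by 1 Mb blocks, two-sided Wald tests, and Benjamini-Hochberg adjustment over the 4 lists or 3 factors at a threshold of 0.05. The model was tested on simulated data. The kinds of promoter, the gene lists and the tests were chosen with earlier results of these data known. Named were the highest-scoring genes of each list, name class and host class, ZNF143-only promoters and the 6 gene lists. Sequences were read from hg38.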

Additional observations from a re-analysis of the deposited data

How the results depend on the processing

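The odds ratios of lncRNA against protein-coding promoters kept their direction and passed the test in every list under each of the 11 alternatives, from 0.0669 to 0.176 without covariates (the highest value in each list against isolated protein-coding genes) and from 0.301 to 0.517 at equal base composition. Those of ZNF143 with NRF1 did so under 12 alternatives, from 1.49 to 4.18.

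Those of ZNF143 with SP1 or YY1 depended on the window and the list. For SP1 the ratio was 2.22 with windows of 250 bp, 4.53 at equal list length and 1.84 with the top 50% by score, all past the threshold. It was below 1 and past the threshold with windows of 1000 bp (0.478), and below 1 without passing against isolated protein-coding genes (0.951). For YY1 it was above 1 and past the threshold with windows of 250 bp (2.35) and at equal list length (3.18). It was above 1 without passing with the top 50% by score (1.26) and without the 44 regions (142.3 Mb) where NRF1 or YY1 peak numbers are skipped (1.11). With windows of 1000 bp it was 0.558, past the threshold. Shortened lists and windows also held fewer summits and the longer windows more, and the cause of these changes was not tested.

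Counts of occupied promoters stayed within 1.5 times except for SP1 (657) and YY1 (706) at equal list length and ZNF143 with the top 50% by score (374). Within 100 bp the consensus was at 18.2% of SP1 and 4.01% of YY1 summits. With 1 mismatch it was at 25.9% (ZNF143), 44.2% (SP1), 12.3% (NRF1) and 15.4% (YY1). Merging overlapping windows, shared by 935 promoters, left 14948, of which 563 held ZNF143.

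No paired analysis was possible because the lists give no value per sample. Depth was unknown, so a promoter without a summit was not shown to be unbound. With no mock list analysed here, background was read from flanking windows, of which 3.48% (SP1), 0.826% (NRF1) and 2.96% (YY1) held a summit 20000 bp away.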
